A study of Rattus norvegicus with 11 samples.

Results

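The renal cortex of non-diabetic, sham-operated rats was described by the brightness of its transcripts on Agilent single-colour arrays. It is represented by the 3 arrays labelled Control+Sham, of 11 in the series. The other groups are DM+Sham (3 arrays), Control+RYGB (3 arrays) and DM+RYGB (2 arrays). All animals were SD rats and every array was hybridised with Cy3-labelled total RNA of renal cortex. Diabetes (DM) was of type 1 and was induced with streptozotocin (STZ), a toxin of pancreatic beta cells. Rats were operated on 4 weeks later, either with a sham procedure or with RYGB, a Roux-en-Y bypass of the stomach, and cortex was taken 4 weeks after the operation. Control+Sham rats therefore had no STZ diabetes and no bypass but did have an operation. Age and sex are not given in the labels, nor is it stated that the replicates are separate animals, so the SD over 3 arrays may be partly technical. The study's title names NADPH synthesis and the kinase AMPK in diabetic nephropathy, and the Control+Sham cortex is its undiseased baseline.

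The cortex consists mostly of proximal tubules, which take back most of the filtered glucose, amino acids, phosphate and bicarbonate and are rich in mitochondria. It also holds the glomeruli, where podocytes and endothelium filter plasma, and the cortical thick limbs, distal convoluted tubules and collecting ducts that adjust salt, water and acid excretion. The kidney cortex also makes glucose, mainly from lactate and glutamine, and is the main site of ammonia production for acid excretion.

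A level is given here as the log2 processed signal of a probe minus the 75th percentile of its array, so a level of 0 is the 75th percentile. Ranks run from 1, the brightest of 30367 non-control probes, and a percentile is the share of those probes that are dimmer. The 75th percentile of signal was 1155, 864 and 2487 on replicates 1, 2 and 3, and 80.2%, 77.7% and 90.5% of probes were well above background there. All 3 flags were set for 23505 probes, called detected here, which is 77.4% of all. Of 3082 probes above background on 1 array alone, 3066 were above it on replicate 3, the brightest array. Among the 15168 genes that could be named, 12377 were detected (81.6%). Control+Sham replicates correlated over all probes with Spearman's rho of 0.997, 0.992 and 0.989, and the median SD of a detected probe was 0.12. Replicate 3 was compressed at the top: probes above the 99th percentile were lower on it by a median of 0.50 than on the other 2 replicates, so its values in the brightest genes run below the others. These 3 arrays were scanned on 3 different days.

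Ranks order the signals of different probes, which bind with different strength, and do not order RNA amounts. The 2398 genes with 2 probes measured this limit: their probes lay a median of 15.5 percentile points apart (2.05 on the log2 scale), and 1 in 10 of these pairs lay over 40.1 points apart (5.18). Detection alone said little about a tissue, since 338 of 1149 olfactory receptor genes (29.4%) passed it, at a median percentile of 11.7. Lists of photoreceptor, sperm, brain and pancreas genes had 31 of 58 members detected, at a median percentile of 25.3. Above the 95th percentile of the olfactory receptors, which was at 44.0, lay 9648 of the named genes (63.6%).

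The 5 marker genes that were used to check the tissue label were detected on all 3 arrays. Aqp1, the water channel of the proximal tubule and thin descending limb, had levels of 4.87, 4.74 and 4.86 (rank 335). Slc4a4, the basolateral sodium bicarbonate cotransporter of the proximal tubule, had 4.67, 4.66 and 4.55 (rank 433). Both were among the brightest 2% of probes, by a margin that no replicate undid. Slc12a3, the thiazide-sensitive cotransporter that defines the distal convoluted tubule, had levels of 2.21, 2.52 and 2.10 (rank 3175). Nphs1, the nephrin of the podocyte slit diaphragm, had 1.98, 1.98 and 1.94 (rank 3714). Cubn, the endocytic receptor cubilin of the proximal tubule, had 1.67, 1.61 and 1.77 (rank 4206). These 3 genes lay between the 86th and the 90th percentile and their order depended on the probe used: a second probe stood at percentile 61.6 for Nphs1 and at 78.9 for Slc12a3. The marker check thus placed proximal tubule, glomerulus and distal convoluted tubule in the RNA, with the proximal genes Aqp1 and Slc4a4 brighter in signal than Cubn.

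The brightest named genes mixed kidney functions with the machinery of every cell. Tpt1, a growth-related protein of all cells, ranked 2 with levels of 6.34, 6.45 and 5.47, although its 3 probes reached down to percentile 85.0. Slc13a3, the dicarboxylate transporter NaDC3 on the basolateral side of the proximal tubule, ranked 3 with 6.21, 6.27 and 5.72. Atp1b1, the beta subunit of the sodium pump, ranked 6 with 6.20, 6.35 and 5.50. Rplp0, Rpl37a, Rpl41, Rplp2, Fau and Rps12 code for proteins of the ribosome. Cox6a1 (rank 8) and Atp5pb (rank 29) belong to the respiratory chain and ATP synthase. Fbp1, the gluconeogenic fructose bisphosphatase, had levels of 6.23, 6.28 and 5.25 (rank 14). The steroid and fatty acid hydroxylase Cyp4f1 (rank 19), the acyl-CoA synthetase Acsm2 (rank 23) and Ddah1, which degrades methylated arginines (rank 31), followed. Umod ranked 26 and Aqp2 ranked 30, from the thick limb and the collecting duct. The remaining genes of the 20 were Myl6, Actg1 and Pcbd1, for myosin light chain, cytoplasmic actin and a pterin dehydratase. A second probe stood at percentile 74.4 for Ddah1 and at 89.8 for Actg1.

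**Figure D1:**
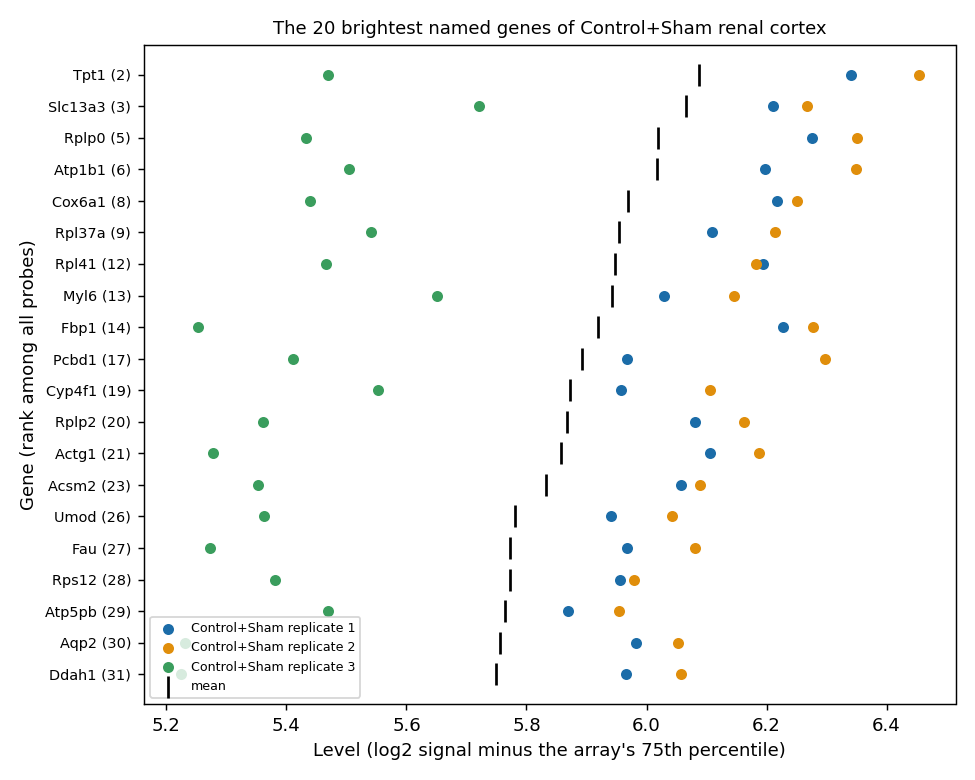
Level (log2 signal minus the array's 75th percentile, x axis) of the 20 named genes with the highest mean level in Control+Sham cortex, with 1 point per array and a bar at the mean, ordered by rank among all probes. Replicate 3 (green) lies lowest for every gene shown, while replicates 1 and 2 lie together, for example at 6.34 and 6.45 against 5.47 for Tpt1.

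The brightest 200 named genes held 38 of the 89 ribosomal protein genes measured, 22 genes whose symbols mark them as respiratory chain or ATP synthase subunits (Nduf, Sdh, Uqcr, Cox and Atp5), a wider set than the list of 19 genes, and 10 solute carriers. Signal was spread widely: the brightest 100 probes carried 9.30%, 9.54% and 7.21% of the summed signal on replicates 1, 2 and 3. Of 337 solute carrier genes measured, 294 were detected, beside 12377 of all 15168 named genes (81.6%).

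Promoters of the brightest marker of 3 segments are shown because these genes, Slc13a3, Umod and Aqp2, ranked 3, 26 and 30. The 200 bases before each start site are from RefSeq (GRCr8) at chr3:174623894-174624093 (minus strand) for Slc13a3, chr1:183261017-183261216 (minus strand) for Umod and chr7:132590086-132590285 (plus strand) for Aqp2. Both strands were searched, and capitals mark matches to GGGCGG (the GC box), TATAAA (the TATA box), CCAAT (the CCAAT box) and, for HNF1 factors, GTTAAT. The last is the core of the motif that HNF1 factors bind.
Slc13a3: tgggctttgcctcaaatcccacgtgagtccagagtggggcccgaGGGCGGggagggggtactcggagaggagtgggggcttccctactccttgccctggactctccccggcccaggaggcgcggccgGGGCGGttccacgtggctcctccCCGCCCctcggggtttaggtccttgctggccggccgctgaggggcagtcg
Umod: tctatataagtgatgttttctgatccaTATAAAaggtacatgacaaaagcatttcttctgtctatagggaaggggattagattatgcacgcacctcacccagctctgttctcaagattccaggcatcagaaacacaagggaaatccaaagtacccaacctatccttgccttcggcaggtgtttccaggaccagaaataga
Aqp2: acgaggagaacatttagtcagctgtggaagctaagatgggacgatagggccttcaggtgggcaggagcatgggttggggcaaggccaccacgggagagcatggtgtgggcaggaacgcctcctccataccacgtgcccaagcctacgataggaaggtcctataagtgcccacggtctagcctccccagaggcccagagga
The Slc13a3 window held 3 matches to GGGCGG, the Umod window held 1 match to TATAAA at 173 to 168 bases before the start, and the Aqp2 window held none of the 4 motifs. Over 33469 promoters of this length, 28.6% held GGGCGG, 29.2% CCAAT, 10.4% TATAAA and 5.12% the HNF1 core.

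The HNF1 core GTTAAT was present before 7 of the 29 proximal tubule list genes that had a promoter in the table (24.1%), before 1 of 6 S3 genes, 2 of 11 thick ascending limb genes and 1 of 9 distal convoluted tubule genes, and before none of 11 podocyte, 9 principal cell and 10 intercalated cell genes. The 3 brightest genes with a match are shown with 60 bases around it, the match in capitals, at chr7:122284484-122284543 (plus strand) for Miox, chr1:214927164-214927223 (plus strand) for Slc22a8 and chr17:9239071-9239130 (minus strand) for Slc34a1.
Miox: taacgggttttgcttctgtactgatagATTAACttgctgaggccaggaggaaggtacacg
Slc22a8: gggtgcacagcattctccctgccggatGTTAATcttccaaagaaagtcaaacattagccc
Slc34a1: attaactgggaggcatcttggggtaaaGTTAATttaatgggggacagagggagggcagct
The letters ATTAAC are the same core read on the other strand, and Slc34a1 carries it as well, 147 to 142 bases before its start. This other match opens the Slc34a1 window shown and was left in lower case there. A match is a description of letters and not of binding.

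Proximal tubule genes were the brightest of the cell type lists. All 32 measured members were detected, 24 lay above the 90th percentile and 8 above the 99th, and the median percentile was 96.7, against 58.7 for all named genes. Slc13a3 and Fbp1 led the list, followed by Miox, the inositol oxygenase (5.81, 5.84 and 5.11), and Slc22a8, the organic anion transporter OAT3 (5.70, 5.89 and 4.81). The lowest members were Hnf4a, a transcription factor of the proximal tubule (−0.71, −0.69 and −0.64), and Slc9a3, the apical sodium-proton exchanger NHE3 (−2.23, −2.30 and −2.16), whose other probe was not detected. The list was thus bright as a whole, with Slc9a3 and Hnf4a at percentiles 57.1 and 69.7. In the straight segment (S3) list the median percentile was 87.0 over 9 genes. Slc7a13, an aspartate and glutamate transporter (rank 47), and the fatty acid hydroxylase Cyp4a2 (rank 73) led it, ahead of Slc6a18 (rank 1099) and Slco1a1 (rank 1948). Slc22a7 and Slc5a1, the OAT2 and SGLT1 transporters, closed it at ranks 11723 and 12938.

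**Figure D2:**
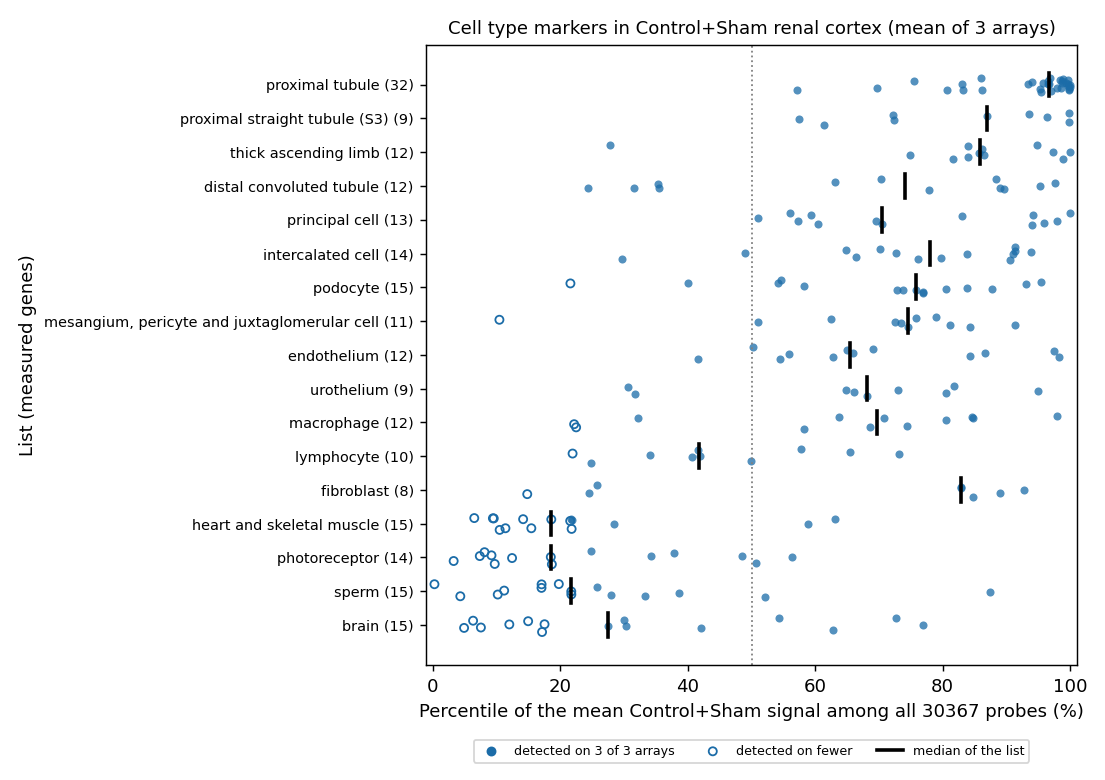
Percentile of the mean Control+Sham signal among all probes (x axis) for each measured gene of the cell type lists (y axis, number of genes in brackets), with filled points for genes detected on 3 of 3 arrays, open points for the others and a bar at the median. The proximal tubule median of 96.7 lies farthest right, and the muscle, photoreceptor and sperm medians lie at 18.6, 18.6 and 21.7.

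Distal segments held 1 or a few very bright genes above a dimmer remainder. Umod, the thick limb's secreted uromodulin, had levels of 5.94, 6.04 and 5.36, and the thick limb list had a median percentile of 85.9 over 12 genes. The growth factor gene Egf ranked 805 and the calcium-sensing receptor Casr ranked 1589. Cldn16, a claudin of paracellular magnesium transport (rank 7650), and Cldn14 (rank 21948) were the lowest. In the distal convoluted tubule list (median 74.1, 12 genes) the potassium channel gene Kcnj16 (rank 713), the sodium pump regulator Fxyd2 (rank 1445), Slc12a3 and the calcium-binding Calb1 (rank 3352) led. Pvalb, parvalbumin, and the calcium channel gene Trpv5 closed it at ranks 22991 and 20803.

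Collecting duct genes divided in the same way. Aqp2, the vasopressin-regulated water channel of principal cells, had levels of 5.98, 6.05 and 5.23, while Aqp3 (rank 651) and the glucocorticoid-inactivating Hsd11b2 (rank 1260) followed. Aqp4 had 3 probes, from rank 1785 to rank 8582. Scnn1a, a subunit of the epithelial sodium channel, and the transcription factor Gata3 stood at ranks 13359 and 14866, near the middle of all probes. Among the intercalated cell genes, Car2, the cytosolic carbonic anhydrase, had levels of 3.21, 3.13 and 3.06 (rank 1870). It was followed by the transcription factor Foxi1 (rank 2607, its other probe at percentile 44.8) and the proton pump subunits Atp6v1g3 (rank 2643) and Atp6v1b1 (rank 2704). Kit and Insrr closed the list at ranks 15505 and 21342. The median percentile was 70.5 over 13 principal cell genes and 77.9 over 14 intercalated cell genes.

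The podocyte list had a median percentile of 75.8, with 14 of 15 genes detected. Podxl, the podocalyxin of the podocyte surface, had levels of 3.59, 3.46 and 3.56 (rank 1393) and Clic5 had 2.95, 2.96 and 2.96 (rank 2106), both above Nphs1. Nphs1 followed, and then the phosphatase gene Ptpro at rank 4933, with its other probe at percentile 72.1. Magi2 (rank 23811, detected on 2 of 3 arrays) was lowest. The endothelial list (median 65.5, 12 genes) was led by Plvap, a protein of endothelial diaphragms, at rank 520, and by Kdr, the VEGF receptor, at rank 753. Pecam1 and Emcn followed at ranks 4064 and 4790. Tie1 and Ehd3 closed it at ranks 15134 and 17737 (percentiles 50.2 and 41.6), below the median of all named genes (58.7). The 11 mesangial, pericyte and juxtaglomerular genes had a median percentile of 74.6, among them Pdgfrb, a receptor of pericytes, at rank 4756. Because these are bulk samples, a lower level of a cell type's genes cannot be told apart from fewer cells or less RNA per cell.

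Markers of tissue that borders on the cortex were measurable. All 9 urothelial genes, of the lining of the renal pelvis, were detected (median percentile 68.1), beside 81.6% of all named genes. Tff3, a secreted trefoil peptide, was at rank 1529 (3.43, 3.53 and 3.29). The uroplakins Upk1b and Upk3a had levels of 0.87, 0.78 and 0.68 and of −0.29, −0.20 and −0.29. A second Upk1b probe stood at percentile 52.4. The lowest member of the list, at 30.6, lay below the 95th percentile of the olfactory receptors (44.0). Genes enriched in the medulla had a median percentile of 79.1 over 9 genes, led by the small heat shock protein Cryab (rank 411), the aldose reductase Akr1b1 (rank 3257) and the urea transporter Slc14a2 (rank 3834). A second Slc14a2 probe stood at percentile 64.4, and the lowest member of this list at 25.2. Macrophage genes (median 69.7) were led by Lyz2 at rank 644, lymphocyte genes had a median of 41.8, and 5 of 15 heart and skeletal muscle genes were detected at a median of 18.6, next to the photoreceptor list. How much RNA those neighbouring tissues added was not tested.

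Transporters were described by what they carry. SGLT2 (Slc5a2), which takes up most filtered glucose, had levels of 5.17, 5.28 and 4.94 (rank 184), and SGLT1 (Slc5a1), with higher affinity and found in the late proximal tubule, had −2.27, −2.23 and −2.07 (rank 12938). Slc2a2, the basolateral GLUT2, had levels of 3.55, 3.69 and 3.42 (rank 1376), above the fructose carrier Slc2a5 (rank 2114) and Slc2a1 (rank 4817). Slc2a3 was detected on 2 arrays, and Slc5a4, the lowest of the glucose transporter list, on none. Glucose transport thus had its brightest probes in the SGLT2 and GLUT2 pair that acts in the early proximal tubule.

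Among 17 amino acid transporters the brightest were Slc7a13 and the cystine transporter pair Slc3a1 (rank 84) and Slc7a9 (rank 381), with Slc7a8 at rank 645. Slc36a2 was detected on no array and Slc7a5 ranked 22787. The organic ion list held the uptake carriers Slc22a8 (rank 71) and Slc22a6 (rank 101) of the proximal tubule near its top, ahead of the efflux pump Abcg2 (rank 1029), and closed by Abcc3 and Slc22a3. Slc34a1, the main phosphate transporter NaPi-IIa, had levels of 5.34, 5.48 and 4.99 (rank 129), followed by the calcium pump Atp2b1 (rank 1254), Casr and Slc34a3 (rank 3180). The calcium channel genes Trpv5 and Trpv6 were lowest there, at ranks 20803 and 21751. Of the acid-base list, Slc4a4 stood first, then Slc26a1 (rank 636), Car2 and Atp6v1b1. Aquaporin probes ordered as Aqp2, Aqp1, Aqp3 and Aqp4, with Aqp9 at rank 22446 and Aqp12a not detected. Claudins, the seals of the paracellular path, were led by Cldn3 (rank 1631), Cldn4 (rank 2986), Cldn2 (rank 4556) and Cldn10 (rank 4852), and closed by Cldn18 and Cldn15.

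The respiratory chain and the TCA cycle had the highest medians of the transporter and enzyme lists. The 19 respiratory chain genes had a median percentile of 98.4 with 18 above the 90th, and the 17 genes of the TCA cycle 97.8 with 13 above it. Cox6a1 (6.22, 6.25 and 5.44), Atp5f1a (rank 109), Ndufb8 (rank 142) and Ndufa4 (rank 145) led the first, and Cox7c (rank 8804) was its lowest. Succinyl-CoA ligase Suclg1 (rank 122), succinate dehydrogenase Sdha (rank 127), Idh3g (rank 302) and Sdhd (rank 349) led the second, and Idh3a, a subunit of the same enzyme as Idh3g, was lowest at rank 11965. Gluconeogenesis (median 96.2, 14 genes) was led by Fbp1, Pgk1 (rank 126), Tpi1 (rank 171) and G6pc1 (rank 289), the phosphatase that releases free glucose, with levels of 5.07, 4.97 and 4.72. Fatty acid oxidation (median 93.1, 20 genes) was led by Acadl (rank 115), Hadh (rank 215), Echs1 (rank 408) and Acaa1a (rank 447). Every member of these 4 lists was detected on all 3 arrays.

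**Figure D3:**
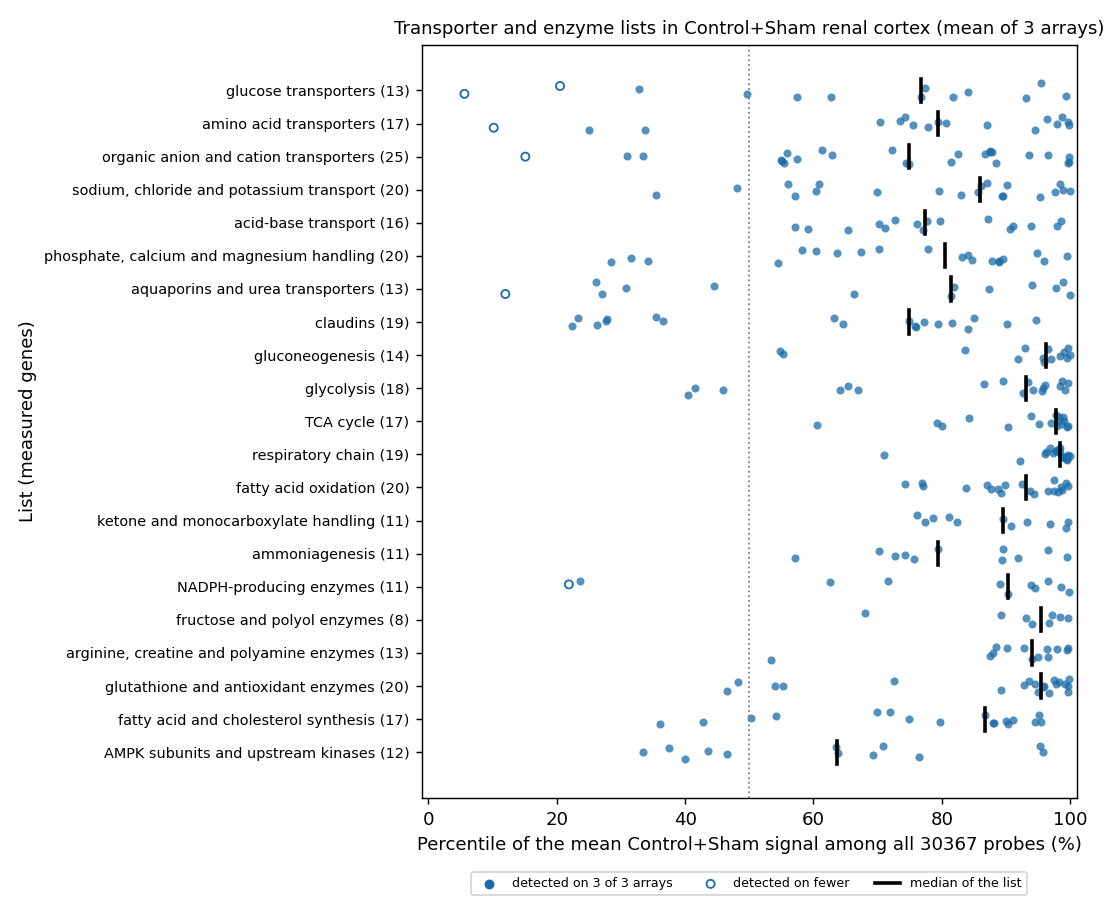
Percentile of the mean Control+Sham signal among all probes (x axis) for each measured gene of the transporter and enzyme lists (y axis, number of genes in brackets), with filled points for genes detected on 3 of 3 arrays, open points for the others and a bar at the median. Respiratory chain and TCA cycle medians lie at 98.4 and 97.8, and the AMPK list at 63.6.

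Genes listed for enzymes that can make NADPH, the reducing agent named in the study's title, spanned most of the range. Idh2, the mitochondrial NADP isocitrate dehydrogenase, had levels of 5.80 and 5.68 on replicates 1 and 2 and a mean of 5.49 ± 0.43 over all 3 (SD, rank 65). Nnt, the proton-driven transhydrogenase of the inner membrane, had 4.57, 4.63 and 4.54 (rank 452), and the cytosolic malic enzyme Me1 had 3.87, 3.74 and 3.88 (rank 1062). The 2 brightest of the list were thus mitochondrial enzymes. Idh1, the cytosolic isocitrate dehydrogenase, had 3.33, 3.34 and 3.22 (rank 1671). Aldh1l2 (rank 23191) and Me2 (rank 23724, detected on 2 arrays) were lowest, and the median percentile over 11 genes was 90.3. Pgd, Me3 and Mthfd1l were not analysed here.

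AMPK, the energy sensor made of an alpha, a beta and a gamma subunit, had its brightest probe in the beta1 subunit. Prkab1 (beta1) had levels of 3.68, 3.71 and 3.56 (rank 1264), and Prkab2 (beta2) had −3.85, −3.51 and −3.64 (rank 17145). The catalytic subunits Prkaa2 (−0.77, −0.77 and −0.66) and Prkaa1 (−1.44, −1.34 and −1.48) lay 0.69 apart, which is less than the usual gap between probes of 1 gene. Prkag1 ranked 7155, Prkag2 11086 and Prkag3 20202 among the gamma subunits. Stk11, the upstream kinase LKB1, stood at rank 18961, while Cab39, the adaptor protein that binds it, stood at rank 1439.

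Other enzyme lists ranged more widely. Antioxidant and glutathione genes (median percentile 95.4, 20 genes) were led by Sod1 (5.74, 5.61 and 4.96), Gsta1 (rank 80), the glutathione-synthesis gene Gclc (rank 117) and Gpx4 (rank 234), and closed by Hmox1 and Gstm1 at ranks 15700 and 16244. Fructose and polyol enzymes (95.4, 8 genes) were led by ketohexokinase Khk (rank 120). Oxct1, which lets tissues burn ketone bodies, ranked 96. Ammonia genesis had a lower median of 79.5, with 3 of 11 genes above the 90th percentile, and was led by glutamate dehydrogenase Glud1 (5.28, 5.43 and 5.14). The creatine transporter Slc6a8 (rank 99) and ornithine aminotransferase Oat (rank 147) led the arginine and creatine list, in which Arg1, the liver-type arginase, was lowest at rank 14144. The fatty acid and cholesterol synthesis list (86.8, 17 genes) had Acly at rank 1360 and Acaca at rank 19415.

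Isoform choice was compared in 39 families with at least 2 measured members. In all 39 the same member was brightest on each of the 3 arrays, and in 36 the full order was the same on each. In 21 families the brightest member led the next by more than 2.05, the median log2 gap between probes of 1 gene, and in 9 by more than the 90th percentile of that gap, 5.18. Only the 9 stand clear of most of what probe choice alone gave.

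Among those, cytochrome oxidase 6a had Cox6a1 over its muscle form Cox6a2 by 9.38 ± 0.51 (log2, SD of the gap over 3 arrays). For malic enzyme the measured gap of Me1 over Me2 was 9.98 ± 0.08, but Me2 was well above background on 2 of 3 arrays, at percentile 21.9, so this gap has no firm size. Fbp1 exceeded Fbp2, the muscle fructose bisphosphatase, by 8.40 ± 0.49. G6pc1 exceeded the ubiquitous G6pc3 by 7.36 ± 0.40 and Slc5a2 exceeded Slc5a1 by 7.32 ± 0.27. Prkab1 exceeded Prkab2 by 7.32 ± 0.19, Hk1 exceeded Hk2 by 7.11 ± 0.25 and Cox4i1 exceeded Cox4i2 by 6.40 ± 0.16. The hexokinases Hk2 and Hk3 averaged −3.42 and −3.88. Prkab2, Hk2 and Cox6a2 were detected on all 3 arrays but stood at percentiles 43.5, 45.9 and 46.0, near the 95th percentile of the olfactory receptors (44.0). The sizes of the gaps over them are thus uncertain as well.

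**Figure D4:**
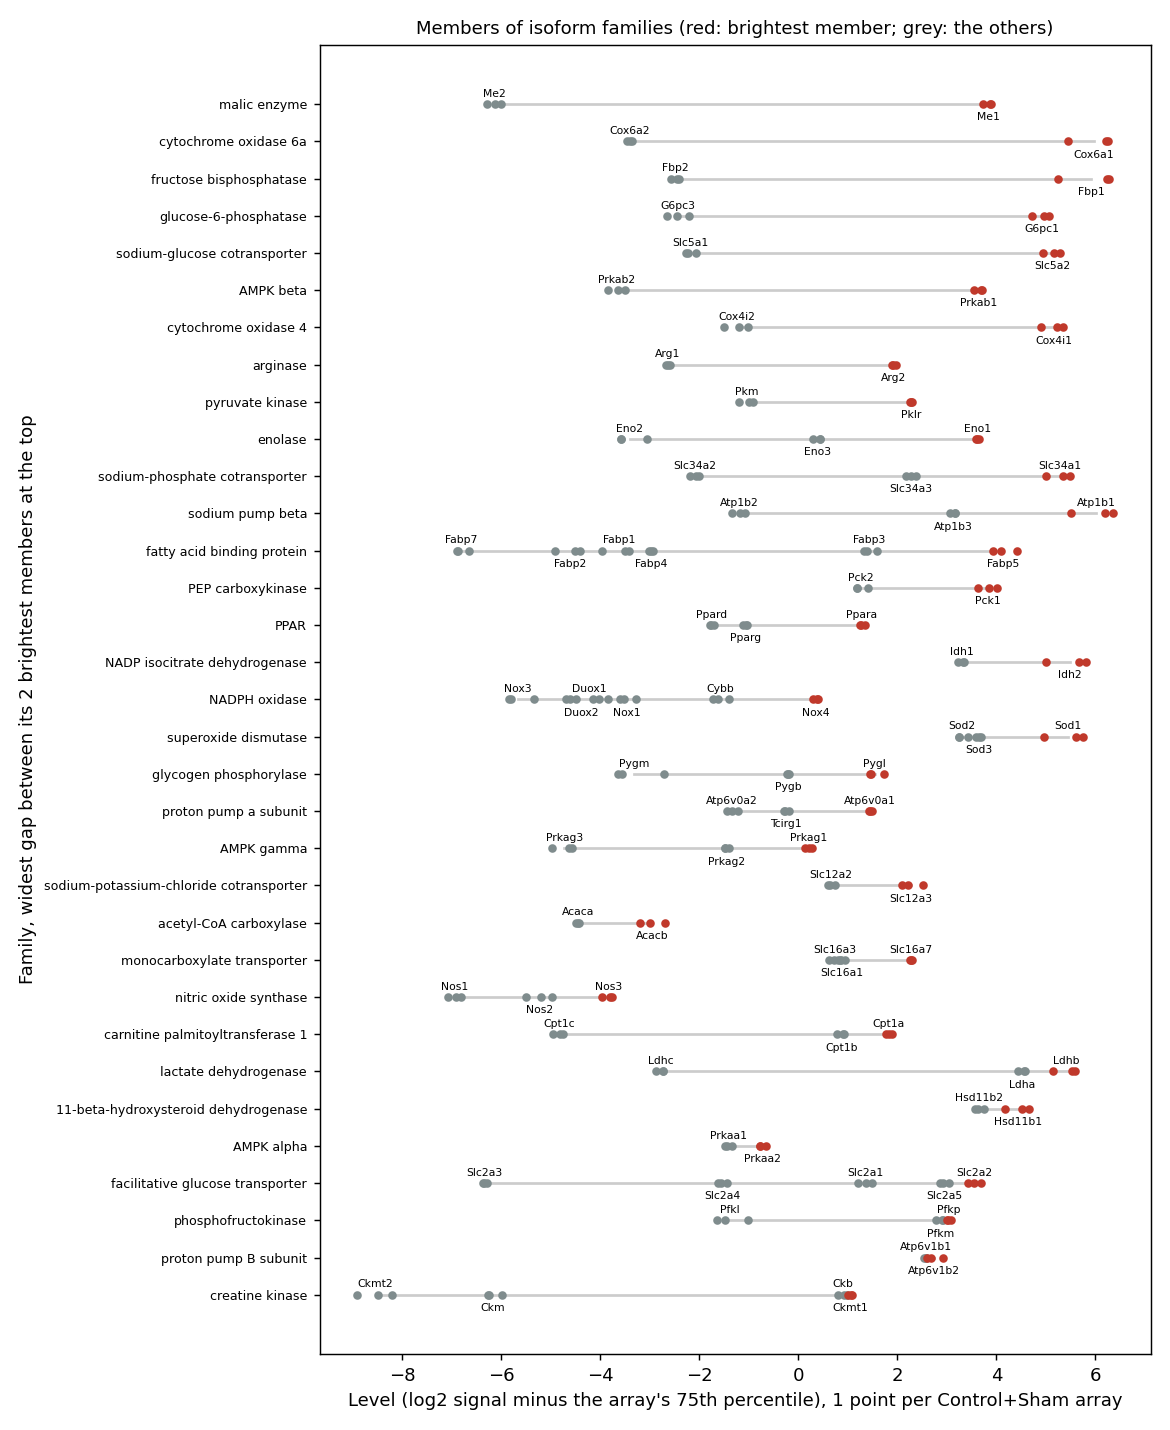
Level (log2 signal minus the array's 75th percentile, x axis) of each member of 33 isoform families (y axis), with 1 point per Control+Sham array, red for the brightest member and grey for the others, and the widest gap between the 2 brightest members at the top. The gap is 9.38 for Cox6a1 over Cox6a2, near the top, and 0.14 for Ckmt1 over Ckb at the bottom, and Me2 in the top row was detected on 2 of 3 arrays.

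A second tier led by 2.20 to 4.56. Arg2, the mitochondrial arginase, exceeded Arg1 by 4.56 ± 0.02, the pyruvate kinase gene Pklr exceeded Pkm by 3.32 ± 0.15, and Eno1 exceeded the muscle enolase Eno3 by 3.23 ± 0.10, with Eno2 lower. Slc34a1 averaged 5.27 ± 0.25 and Slc34a3 2.27 ± 0.11, with Slc34a2 lowest, and Atp1b1 exceeded Atp1b3 by 2.88 ± 0.49. Fabp5 exceeded Fabp3 by 2.71 ± 0.11 and the cytosolic Pck1 exceeded the mitochondrial Pck2 by 2.57 ± 0.21. Ppara exceeded Pparg by 2.35 ± 0.09 and Idh2 exceeded Idh1 by 2.20 ± 0.36. All of these gaps lie within the range that 2 probes of the same gene also covered.

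In the other 18 families the gap was smaller. Lactate dehydrogenase had Ldhb at 5.42 ± 0.24 and Ldha at 4.53 ± 0.08 (SD, n = 3), with the testis form Ldhc at −2.78 ± 0.07. Phosphofructokinase had Pfkp and Pfkm 0.17 apart, the creatine kinases Ckmt1 and Ckb were 0.14 apart, and the proton pump B subunits Atp6v1b2 and Atp6v1b1 were 0.16 apart. Of the NADPH oxidases, Nox4, the form first found in kidney, was highest at 0.35 ± 0.06 and the phagocyte form Cybb followed at −1.59 ± 0.17, with Nox1, Duox1, Duox2 and Nox3 below. Nos3, the endothelial nitric oxide synthase, averaged −3.84 ± 0.11, above Nos2, while Nos1 was detected on 1 array. Sod1, Sod3 and Sod2 all lay above the 94th percentile.

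Few detected genes varied between the 3 arrays: 114 detected probes (0.485%) had an SD over 1. Tspy26 (0.59, 0.49 and −4.40) and the interleukin receptor gene Il18r1 (−0.01, −0.06 and −4.87) had the largest SDs, at 2.85 and 2.79. This ranking covers the named genes detected on all 3 arrays. Both genes were low on replicate 3. Defb52 and Six2 were also lowest there, at −5.05 and −5.88. Radil, Tnp1, Gipr, Gabrb2, Tbca and Frs3 ran the other way, with levels of −3.45 to −3.01 on replicate 3 and below −5.3 on replicates 1 and 2. Tspy26 and Il18r1 thus had a signal near the 75th percentile on 2 arrays and a far lower one on replicate 3, and every gene of the 10 had 1 probe.

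To see where Control+Sham cortex differed from the rest of the series, it was compared with the mean of the other 3 groups with limma. Changes are given relative to the median change of all 25250 genes tested, which was −0.18 under 75th percentile scaling. Of these 25250, 14358 were named genes and the rest were unnamed transcripts, each counted as a gene here. The SE and p-values belong to the difference before the median was subtracted. A gene was called when its Benjamini-Hochberg adjusted p was under 0.05 in the same direction under 3 scalings. The 3 Control+Sham arrays differed from each other by 0.11 to 0.20 (robust SD of log2 differences), and from arrays of other groups by 0.38 to 0.74. By this rule 4837 genes were called (19.2%), 2818 of them higher (11.2%) and 2019 lower (8%) in Control+Sham. With 75th percentile scaling alone 34.4% of calls were higher, and with median scaling alone 66.0%. Control+Sham was scanned on days 1, 2 and 3, DM+Sham on days 2, 3 and 4, and both RYGB groups on days 4 and 5. Control+Sham thus shared no scan day with either RYGB group, and scan day cannot be told apart from the bypass in that contrast except through DM+Sham. With the scan day as a block, which leaves 2 residual degrees of freedom, limma called 0 genes at a smallest adjusted p of 0.12, and 4067 had an unadjusted p under 0.05.

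The largest differences on the higher side included a urothelial gene, a urea transporter and an organic anion transporter. Upk2, a uroplakin of urothelium, had levels of −1.14, −0.99 and −1.28 in Control+Sham, against −8.52 to −7.74 in DM+Sham, −7.30 to −6.57 in Control+RYGB and −7.08 to −6.19 in DM+RYGB. No array of another group came near, and the measured change was 6.24 ± 0.26 (SE, limma adjusted p = 6.5e-05). Upk2 was well above background on only 1 of 3 DM+Sham and 1 of 2 DM+RYGB arrays, so the size of this change is uncertain. Slc14a2, the urea transporter of the inner medulla, had 1.88, 2.16 and 1.66 in Control+Sham and 1.28 to 1.41 in DM+Sham, against −7.02 to −6.44 in both RYGB groups, so the difference lay in the bypass groups. Slco1a1, an organic anion transporter, had 3.03, 3.05 and 3.12 in Control+Sham, against −6.18 to −5.88 in DM+Sham 1.87 to 1.98 in Control+RYGB and −0.05 and −0.60 in DM+RYGB. Others were Gldn, Mettl15, Serpinb5, Acot5, the male-type liver hydroxylase Cyp2c11 and Nrip3, with measured changes of 4.10 to 6.40. In DM+Sham, 2 of 3 arrays measured Gldn, Mettl15 and Serpinb5 well above background, and in DM+RYGB 1 of 2 arrays measured Mettl15 and Slc14a2 so, and thus the sizes of their changes are uncertain too.

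**Figure D5:**
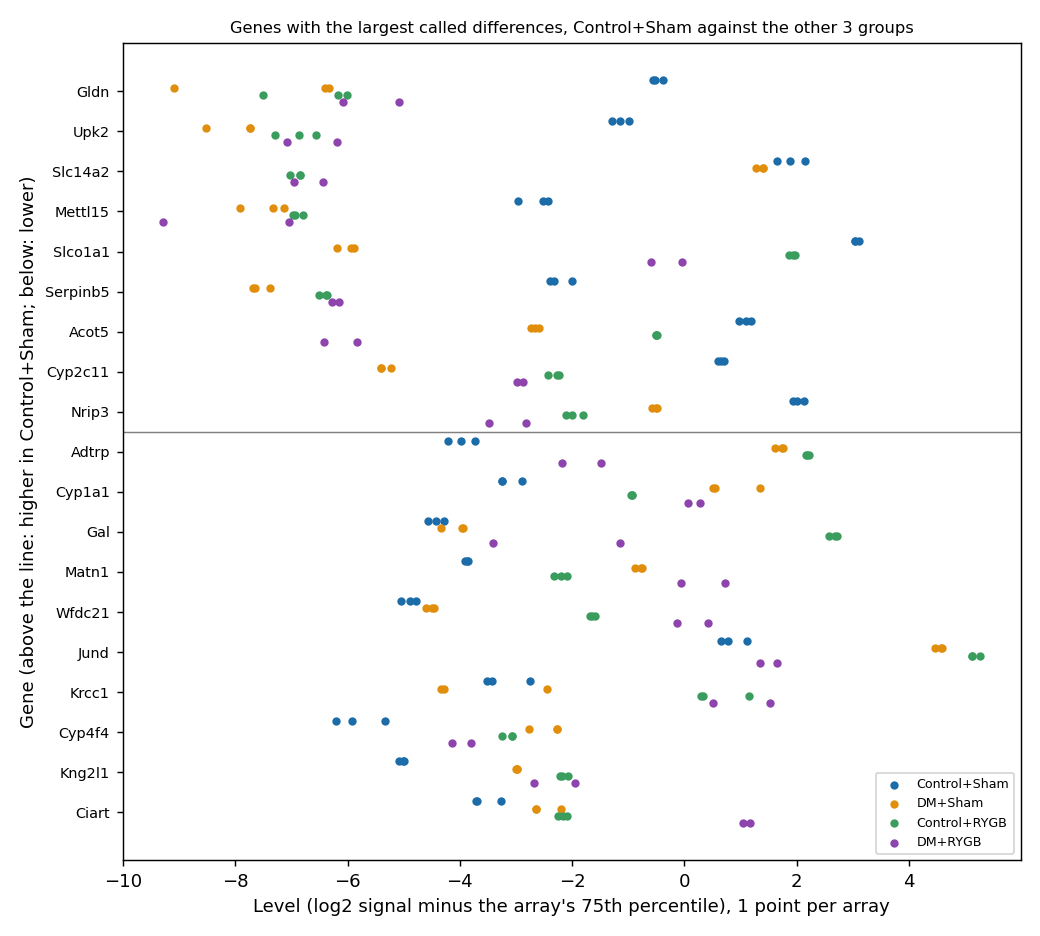
Level (log2 signal minus the array's 75th percentile, x axis) on each of 11 arrays, coloured by group, for 9 of the named genes with the largest higher and the 10 with the largest lower called change in Control+Sham (y axis, apart by the grey line). For Upk2 the Control+Sham points (blue) lie at −1.28 to −0.99, against −8.52 to −6.19 in the other groups, and for Gal and Krcc1 they overlap with DM+Sham.

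On the lower side, Adtrp, a lipid hydrolase, had levels of −4.21, −3.97 and −3.74 in Control+Sham, against 1.61 to 1.76 in DM+Sham, 2.18 to 2.23 in Control+RYGB and −2.17 and −1.48 in DM+RYGB (change −4.48 ± 0.18 SE, limma adjusted p = 4.9e-05). Cyp1a1, a target of the aryl hydrocarbon receptor, had −3.26, −3.24 and −2.90 in Control+Sham, against −0.96 to 1.35 over all other arrays. Jund, an AP-1 transcription factor, had 0.78, 0.66 and 1.11 in Control+Sham, against 4.47 to 4.59 in DM+Sham, 5.13 to 5.26 in Control+RYGB and 1.35 and 1.65 in DM+RYGB. Control+Sham lay below every other array for these 3 genes. Gal, Matn1, Wfdc21, Krcc1, Cyp4f4, Kng2l1 and the clock gene Ciart completed the 10, with changes of −2.99 to −2.20, and the groups overlapped for Krcc1, which was at −4.34 and −4.29 on DM+Sham replicates 2 and 3, and for Gal, which was at −4.34 on DM+Sham replicate 1.

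Lists whose members were counted in this comparison are read against the 11.2% higher and 8% lower over all genes tested, named and unnamed. Urothelial genes were called higher in 7 of 9 and lower in 1, with a median change of 2.99, and the same list stood at percentile 67.5 to 68.5 on the Control+Sham arrays, against 32.2 to 41.4 over the other 8. Between Control+Sham and DM+Sham arrays scanned on the same day the list's median difference was 2.95 and 2.72. Tff3 (3.86 ± 0.15 SE, limma adjusted p = 5.7e-05) and Upk1b (2.99 ± 0.13) were among the strongest. Genes enriched in the medulla were called higher in 5 of 9 (median 0.66), with list percentiles of 78.8 to 79.3 in Control+Sham, against 68.0 to 70.4 in DM+Sham and 45.8 to 52.2 in the RYGB groups. The part that pelvis or medulla RNA had in the other differences was not tested.

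Fatty acid and cholesterol synthesis genes were called higher in 10 of 17 and lower in none (median change 0.59; within scan days, Control+Sham minus DM+Sham, 0.85 and 0.72). Fasn, the fatty acid synthase, had levels of 1.83, 1.78 and 1.74 in Control+Sham, against 0.24 to 0.32 in DM+Sham, 0.83 to 0.92 in Control+RYGB and −0.49 and −0.17 in DM+RYGB. Its change was 1.69 ± 0.09 (SE), that of the desaturase Fads1 2.14 ± 0.15 and that of Scd2 1.80 ± 0.11. Of 11 genes on the NADPH list 3 were called higher, the cytosolic Me1 by 1.00 ± 0.11, Idh1 by 0.86 ± 0.09 and Mthfd2 by 0.76 ± 0.12, and none lower. How much NADPH any of them makes in this tissue was not measured. The list's median difference from DM+Sham within scan days was −0.15 and −0.13, against a median change of 0.41 in the whole comparison. With median scaling alone 6 were called higher and 2 lower, and with normexp none was called. Idh1 was higher in Control+RYGB (3.64 to 3.66) than on any Control+Sham array, and without the DM+RYGB arrays it was no longer called (0.24, limma adjusted p = 0.17). No TCA cycle gene of 17 was called (limma, median change 0.05), and 1 of 19 respiratory chain genes was.

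Proximal tubule genes were called higher in 15 of 32 and lower in 1, with a median change of 0.60, but this count depended on the DM+RYGB arrays. The list's percentile was 96.7 to 96.8 on Control+Sham arrays, 96.5 to 96.9 in DM+Sham, 97.2 to 97.3 in Control+RYGB, and 90.2 and 88.0 on DM+RYGB replicates 1 and 2. Without both DM+RYGB arrays 5 were called higher and 3 lower, and within scan days the median difference from DM+Sham was 0.14 and −0.15. Heart and skeletal muscle genes stood at percentile 93.2 on DM+RYGB replicate 2, against 17.0 to 23.0 on the other 10 arrays. Their part in the result was not tested. Slc4a4 shows the pattern: 4.67, 4.66 and 4.55 in Control+Sham, against 4.68 to 4.90 in DM+Sham, 5.49 to 5.62 in Control+RYGB and 0.49 and 0.72 in DM+RYGB. Its change of 1.15 ± 0.09 (SE, adjusted p = 0.0010) turned to −0.44 without those arrays, as Aqp1's turned to −0.14 and Cubn's to −0.38. Amino acid transporters were called higher in 9 of 17 and lower in 2, and in 3 and 2 without DM+RYGB.

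Intercalated cell genes were called lower in 6 of 14 and higher in none, at a median change of −0.42. Slc26a4, the anion exchanger pendrin, had levels of 0.68, 0.57 and 0.79 in Control+Sham, against 1.15 to 1.29 in DM+Sham, 0.51 to 0.72 in Control+RYGB and 2.68 and 2.29 in DM+RYGB, so Control+RYGB overlapped with Control+Sham. Without the DM+RYGB arrays 1 of the 14 was called lower. Podocyte genes were called lower in 4 of 15 and higher in none (median −0.34), among them Cdkn1c, Wt1 and Ptpro, and in 2 without DM+RYGB. Of 778 olfactory receptor genes tested, 104 were called lower and 10 higher, at a median change of −0.56. The lower count was 187 with median scaling alone, 167 without Control+Sham replicate 3 and 59 without the DM+RYGB arrays. Within scan days the median difference from DM+Sham was −0.28 and 0.42, so this shift in genes foreign to kidney had no constant sign.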

How the data were processed

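Total RNA of renal cortex, taken from frozen tissue with TRIzol per the labels' protocols, was amplified, labelled with Cy3 and hybridised to Agilent rat gene expression arrays, 1 colour per array. Per the file headers, Agilent Feature Extraction 11.0.1.1 made the deposited intensity values, and the processed signal is already background-subtracted. The deposited table of processed values follows the log2 scanner signal with 1 distribution shared by all columns, without centring of genes. How the authors normalised it is not given in the sources used here, and it served as an alternative.

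Control spots were left out, as were outlier-flagged spots where a probe had others, 30367 probes remained and spots of a probe were averaged. Levels were log2 processed signals minus the 75th percentile of the array. Detection meant the well-above-background flag on all 3 Control+Sham arrays. For levels a gene took its probe with the highest mean level in Control+Sham, and for the comparison its probe with the highest mean signal. Names came only from accession matches to RefSeq (GRCr8), which named 18005 probes and left 12362 unnamed. The number of arrays limits precision, since intensities give no counts.

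DM+Sham replicates 2 and 3, and Control+RYGB replicates 2 and 3, differed by less than the noise of repeated spots, and each pair was averaged and counted as 1 sample. The comparison of Control+Sham with the mean of the other groups was a linear model per gene with moderated variance, from limma 3.58.1 (run in R 4.3.3), on 9 samples with 5 residual degrees of freedom, over genes well above background on at least 2 arrays, with Benjamini-Hochberg adjustment. A call needed an adjusted p under 0.05 in 1 direction under 75th percentile, median and quantile scaling. Its p-values measure the spread between these samples, which may be technical. The fit was also run on simulated data with independent noise, without a scan-day effect and with 75th percentile scaling alone. Such data cannot check the calls against scan day. Alternatives were other scalings, normexp with an offset of 50, filters on dim probes, the probe of a gene, scan day and replicate as blocks, array weights and left-out arrays.

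Named genes were the 5 markers, the 20 brightest, up to 4 highest and 2 lowest members of each list, all isoform family members and the 10 detected genes with the largest SD. For the comparison they were the 10 largest called changes in each direction among genes detected on all 3 Control+Sham arrays and on at least 1 array of each other group, and up to 3 called members of each list. Genes outside this rule were chosen after their values were seen. The members and lists were chosen with earlier results of these data known. Some items that this rule names are not reported here.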

Additional observations from a re-analysis of the deposited data

How the results depend on the processing

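The number of detected probes in Control+Sham, 23505, was 24413 with detection on 2 arrays, 27495 with detection on 1 and 26770 with the weaker significance flag, and 23513 to 24337 without 1 replicate. The median percentile of the proximal tubule list, 96.7, was 96.8 with normexp, 96.2 with the median over a gene's probes, 96.1 with the lowest probe, 96.0 among named genes only and 96.6 to 96.8 without 1 replicate.

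The comparison with the other groups depended more on the processing. The 2818 higher and 2019 lower calls became 5887 and 3030 with median scaling alone, 3179 and 6050 with 75th percentile scaling alone (added after seeing the data), 334 and 102 with normexp, which also started from the median spot signal in place of the processed signal, and 4296 and 3916 with array weights. With the 11 arrays kept separate 3829 were higher and 3101 lower. With normexp 4829 of the 4837 called genes kept their direction and 5103 genes had an unadjusted p under 0.05. With scan day as a block limma called 0 and 0, with 4067 at an unadjusted p under 0.05. Leaving out 1 array gave 1240 to 3963 higher and 637 to 2559 lower calls. The calls were 1240 and 637 without Control+Sham replicate 1, 1370 and 683 without Control+Sham replicate 2 and 1755 and 1093 without Control+RYGB replicate 1. Without Control+RYGB replicates 2 and 3 (added after seeing the data) they were 1818 and 1138. The cause was not tested. With the replicate block 3573 were higher and 3025 lower. Deviations of same-numbered arrays from their group means correlated at −0.38 to 0.45, without a constant sign. Groups of 2 or 3 arrays are too small for this check to exclude a pairing. The labels name none, so the main comparison treated the arrays as unpaired.

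Without both DM+RYGB arrays 3039 and 1796 genes were called, and 2910 calls (60.2%) were shared with the full comparison. There the change turned to −0.14 for Aqp1, −0.33 for Slc2a2, −0.48 for Fga, −0.38 for Cubn, −0.44 for Slc4a4 and 0.10 for Nphs1. Of 2875 values for 111 named genes over all settings, 2455 kept direction and side of the threshold, 402 lost the call, 12 gained it and 6 reversed. Probe brightness limits the levels: the median SD of detected probes was 0.12 overall and 0.22 among the dimmest of them.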
